A study of Mus musculus with 6 samples.

Results

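The SR proteins and hnRNP splicing regulators are 36 genes taken by symbol from a fixed list, and all 36 were among the 55416 genes of the count files. They fall into 12 genes of SR and SR-like proteins (10 Srsf genes, Tra2a and Tra2b), 4 genes of kinases that phosphorylate SR proteins (Clk1, Clk4, Srpk1 and Srpk2), 17 hnRNP genes (Ptbp1 and Ptbp3, of the polypyrimidine tract binding family, included) and 3 further regulators (Mbnl1, Celf2 and Rbm39). Messenger RNA was sequenced from CD3+ cells of the spleen of wild-type C57BL/6 mice that carried an allograft, from a genetically different donor (3 libraries), or an isograft, from a genetically identical one (3 libraries). The cells of both groups were held in RPMI 1640 medium with serum before RNA was taken. The sources used here do not give the grafted organ, the donor strain, the ages, or the times after grafting and in culture. They do not say either whether each library came from its own mouse, so the p-values reflect how far these libraries differ, which may be partly technical.

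Pre-mRNA splicing removes introns, and which exons stay is set largely by proteins that bind the transcript near the splice sites. SR proteins carry a domain rich in arginine and serine and mostly favour the use of an exon, while hnRNP proteins often block it, so that the balance of the 2 families tunes the choice. The cytoplasmic SRPK kinases phosphorylate SR proteins for import into the nucleus, and the nuclear CLK kinases phosphorylate them further. In T cells this machinery is best known for switching the exons of Cd45 (Ptprc) after activation. The counts here are summed over all exons of a gene, so they give the amount of each regulator's RNA and nothing on which exons were spliced in, including the unproductive forms by which many SR genes limit their own output.

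Of the 36 genes, 33 had at least 1 start site in RefSeq's promoter table (GRCm38.p6), as 53 windows that run from 250 bases before to 50 bases after the start; the other members are Clk1, Hnrnpll and Ptbp3. The windows of the members were rich in G and C, with a median of 65.0% against 52.7% over all 32851 windows. These include windows of genes that did not pass the filter on low counts. The median over tested genes alone was not computed, so the gap may not be particular to the members. The 6 printed here belong to the SR genes with the largest rises, to 3 hnRNP genes that rose, and to Srpk2, the member that fell most (1 of its 3 windows). Capitals mark CCAAT boxes (CCAAT or its complement ATTGG), and in addition a TATAAA in Hnrnpab. The printed windows do not stand for all members in how many such boxes they hold. The other windows of Srpk2 held no CCAAT box. Nor did the window of Hnrnpu, which is not printed though it rose slightly more than Hnrnpc (log2 fold changes of 0.77 and 0.75, allograft over isograft).
Srsf7 (chr17:80207256-80207555, minus strand): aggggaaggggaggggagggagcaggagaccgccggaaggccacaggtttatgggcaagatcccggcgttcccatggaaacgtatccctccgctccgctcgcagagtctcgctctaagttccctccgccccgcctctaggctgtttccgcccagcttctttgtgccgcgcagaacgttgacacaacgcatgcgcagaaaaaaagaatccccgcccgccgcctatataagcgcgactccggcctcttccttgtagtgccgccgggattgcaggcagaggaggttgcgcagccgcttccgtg
Srsf10 (chr4:135855821-135856120, plus strand): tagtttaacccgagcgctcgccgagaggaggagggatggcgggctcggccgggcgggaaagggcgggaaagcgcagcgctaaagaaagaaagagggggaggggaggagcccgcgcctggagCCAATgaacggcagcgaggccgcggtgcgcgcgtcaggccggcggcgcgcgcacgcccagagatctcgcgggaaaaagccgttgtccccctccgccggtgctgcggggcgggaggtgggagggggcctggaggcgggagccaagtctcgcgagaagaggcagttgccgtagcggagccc
Hnrnpab (chr11:51606832-51607131, minus strand): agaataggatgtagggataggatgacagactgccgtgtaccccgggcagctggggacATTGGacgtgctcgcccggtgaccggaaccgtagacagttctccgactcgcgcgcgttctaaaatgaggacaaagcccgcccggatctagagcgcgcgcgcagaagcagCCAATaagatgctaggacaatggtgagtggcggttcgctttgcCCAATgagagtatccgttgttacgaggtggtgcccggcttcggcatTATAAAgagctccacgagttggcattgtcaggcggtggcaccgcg
Hnrnpa1 (chr15:103240147-103240446, plus strand): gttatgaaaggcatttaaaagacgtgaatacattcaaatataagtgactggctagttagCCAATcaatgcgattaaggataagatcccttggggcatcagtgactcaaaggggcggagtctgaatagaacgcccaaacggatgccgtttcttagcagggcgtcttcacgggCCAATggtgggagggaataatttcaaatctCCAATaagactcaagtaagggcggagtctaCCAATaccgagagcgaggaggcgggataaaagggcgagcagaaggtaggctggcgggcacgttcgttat
Hnrnpc (chr14:52103972-52104271, minus strand): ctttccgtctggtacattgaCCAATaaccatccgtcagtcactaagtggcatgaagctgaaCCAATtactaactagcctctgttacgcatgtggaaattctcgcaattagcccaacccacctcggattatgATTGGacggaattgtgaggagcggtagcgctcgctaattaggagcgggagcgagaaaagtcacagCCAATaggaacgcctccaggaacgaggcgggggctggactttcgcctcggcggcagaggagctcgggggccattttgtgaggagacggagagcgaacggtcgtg
Srpk2 (chr5:23675918-23676217, minus strand): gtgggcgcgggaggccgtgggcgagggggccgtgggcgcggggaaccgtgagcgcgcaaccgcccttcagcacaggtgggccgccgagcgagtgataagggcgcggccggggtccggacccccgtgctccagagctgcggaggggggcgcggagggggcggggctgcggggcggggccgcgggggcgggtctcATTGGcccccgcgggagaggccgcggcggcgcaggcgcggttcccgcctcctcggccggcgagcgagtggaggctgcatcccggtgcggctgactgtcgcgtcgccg
A CCAAT box, the letters that the factor NF-Y binds, lay in at least 1 window of 20 of the 33 members (60.6%), against 42.7% of 10039 tested genes with a window. Counted by window it was in 45.3% of the members' windows and in 37.5% of those of tested genes. Hnrnpa1 and Hnrnpc each held 4 such boxes, Hnrnpab held 3 and Srsf7 none. The other letters searched, on both strands, were the E-box CACGTG (6 members, 18.2%, against 11.7% of tested genes), the ETS site CCGGAAGT (5 members, 15.2% against 9.3%), TATAAA (7 members, 21.2% against 8.8%) and the cyclic AMP response element TGACGTCA (2 members, 6.06% against 3.6%). Counted by window, the gaps were smaller for the E-box (11.3% of the members' windows against 9.84% of those of tested genes), the ETS site (11.3% against 8.08%), TATAAA (13.2% against 7.28%) and the cyclic AMP response element (3.77% against 3.03%), and several members have more than 1 window. None of these strings contains another. They are matches of letters, given without a test.

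Libraries held 30066137 to 37821738 counts, and the members between 679 and 178394 counts in a library, so counting error was small for each. Levels are given as CPM (counts scaled by TMM to a common library size), and, where genes are compared with each other, as RPKM (the same per kilobase of annotated exon). All 36 members were among the 14926 genes that passed the filter on low counts. Across those, 4283 genes rose and 4349 fell in allograft libraries. B cell transcripts were present in both groups despite the CD3 label: 16 B cell marker genes summed to 2754 to 2904 CPM in allograft and 2928 to 3174 CPM in isograft libraries, and 16 T cell marker genes to 1983 to 2151 CPM in allograft and 2555 to 2637 CPM in isograft libraries. Of the T cell markers 4 rose and 8 fell, and of the B cell markers 4 rose and 8 fell; neither set had a marker at 0. Marker sums of macrophages (137 to 154 CPM in allograft, 129 to 140.5 CPM in isograft) and NK cells (128 to 137 CPM in allograft, 81.1 to 85.8 CPM in isograft) were smaller, and erythroid markers summed to at most 1.44 CPM, with Slc4a1 at 0 in all 6 libraries. The part of these cell types in the members' results was not tested, and in such bulk samples fewer cells of a type and less RNA per cell cannot be told apart.

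Most SR and hnRNP genes were higher in allograft libraries, while the kinases and the 3 further regulators were split. By edgeR's quasi-likelihood test with Benjamini-Hochberg adjustment over all 14926 genes (threshold 0.05), 26 of the 36 members rose, 5 fell and 5 did not pass, where 57.8% of all genes passed, 28.7% as rises and 29.1% as falls. Among the 5599 tested genes at or above the level of the lowest member (a mean of 25.1 CPM, a cut added after the data were seen), 42.7% rose and 31.6% fell. The changes were mostly of moderate size: 2 members rose at least 2-fold (Hnrnpab and Srsf7) and 1 fell at least 2-fold (Srpk2), against 10.1% of all genes in each direction. Of those 5599 genes, 10.9% rose and 5.75% fell at least 2-fold. The groups did not overlap for 30 members, with allograft libraries above in 25 and below in 5, against 63.3% of all genes without overlap, 31.3% above and 32.1% below. The median log2 fold change (allograft minus isograft) was 0.49 over the members, -0.01 over all genes and 0.09 over those 5599 genes. Scaling by total counts instead shifts the median gene by -0.22 (log2), so changes nearer to 0 than that shift rest on the scaling. With total counts 23 members rose and 7 fell, where 2973 of all 14926 genes rose and 6093 fell.

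**Figure D1:**
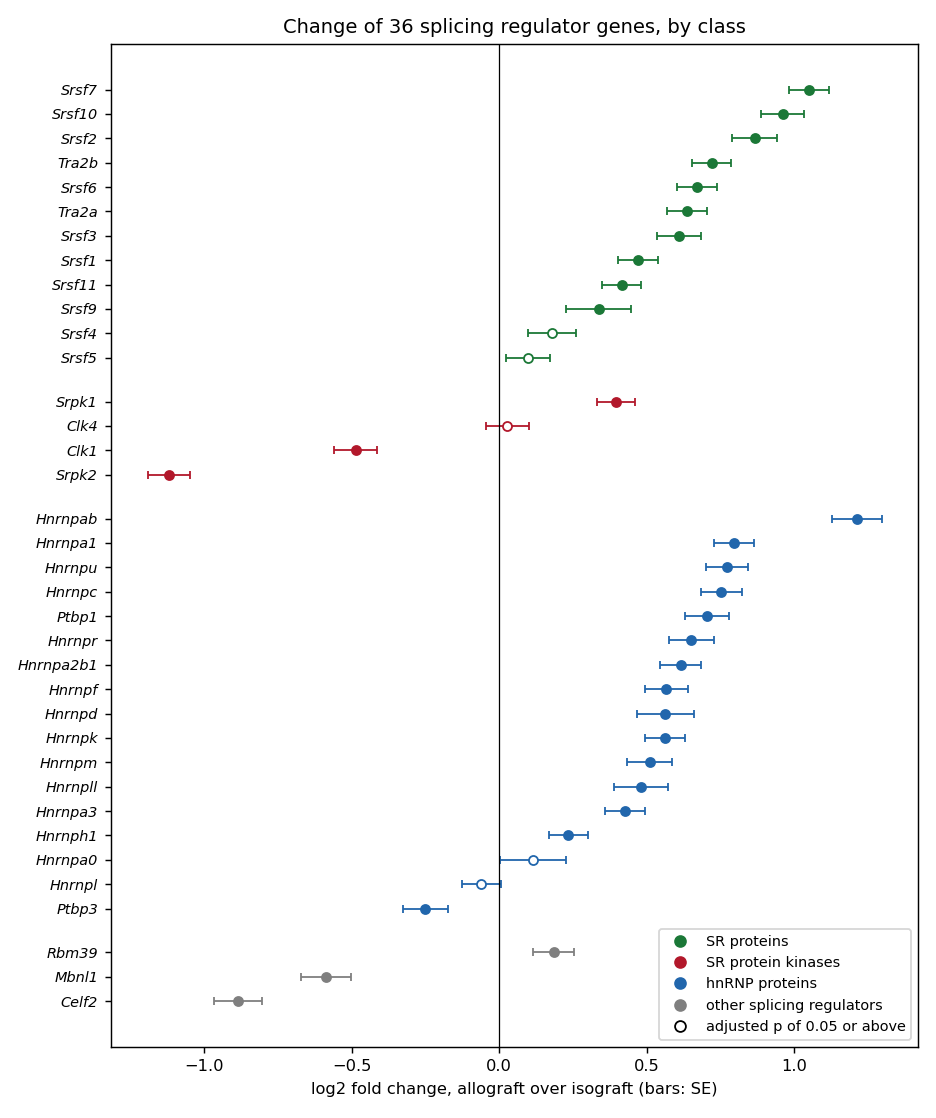
Log2 fold change of each of the 36 genes, allograft over isograft, by class, with bars for the SE; filled points passed the adjusted p of 0.05. SR and hnRNP genes lie mostly right of 0, with Hnrnpab at 1.21 and Srsf7 at 1.05, while Srpk2 (-1.12) and Celf2 (-0.89) lie farthest left.

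Among the 12 SR genes 10 rose and 0 fell, with log2 fold changes from 0.10 to 1.05 and a median of 0.62; 83.3% rose, against 28.7% of all genes. Srsf7, a zinc-knuckle SR protein (ENSMUSG00000024097, chromosome 17, 80507509 to 80514736, GRCm39) that also helps carry mRNA out of the nucleus, stood at 393, 386 and 374 CPM in the allograft libraries, against 192, 181 and 185 CPM in the isograft libraries. All 3 allograft values were above every isograft value, and the log2 fold change was 1.05 ± 0.07 (SE; edgeR adjusted p = 7.9e-11). Srsf10, an SR-like protein that turns into a splicing repressor when it is dephosphorylated (chromosome 4, 135583058 to 135597219), had 370.3, 416 and 428 CPM in allograft libraries, against 205, 212 and 207 CPM in isograft libraries. It rose by 0.96 ± 0.07 (edgeR adjusted p = 7.9e-10), with no overlap. Srsf2, known as SC35 and a binder of exonic enhancers (chromosome 11, 116740727 to 116743920), had 127, 123 and 109 CPM in allograft libraries, against 64.9, 64.4 and 67.9 CPM in isograft libraries, a log2 fold change of 0.87 ± 0.08 (edgeR adjusted p = 8.2e-09). Of its annotated exon bases 25.3% are shared with Mettl23 and Mfsd11, and counts that fall on shared bases are left out by the counting program's defaults.

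The Tra2 proteins, which bind GA-rich exonic enhancers, rose by similar amounts. Tra2b had 627, 642 and 601 CPM in allograft and 368, 379 and 389 CPM in isograft libraries (0.72 ± 0.07, edgeR adjusted p = 1.9e-08), and Tra2a averaged 425 ± 18.8 CPM in allograft and 274 ± 3.1 CPM in isograft libraries (SD, n = 3 each). The remaining SR genes that rose were Srsf6 (0.67), Srsf3 (0.61), Srsf1 (0.47), Srsf11 (0.42) and Srsf9 (0.34). Srsf1, the founding family member (SF2/ASF), averaged 465 ± 21.5 CPM in allograft and 336 ± 7.97 CPM in isograft libraries (SD, n = 3 each). Srsf3, the shortest SR protein, averaged 298 ± 22.8 CPM in allograft and 196 ± 9.82 CPM in isograft libraries. Srsf9 was the only one of the 10 whose groups overlapped, at 88.4, 72.8 and 67.8 CPM in allograft and 51.9, 61.0 and 68.6 CPM in isograft libraries. Its call (edgeR adjusted p = 0.016) was lost with total counts (0.33), without isograft replicate 1 (0.073) and without allograft replicate 1 (0.073), where its log2 fold change was 0.12, 0.23 and 0.21.

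Srsf4 and Srsf5 did not pass. Srsf5, the SR gene with the highest level, had 1928, 1807 and 1632 CPM in allograft libraries, against 1672, 1625 and 1720.2 CPM in isograft libraries, and these ranges overlapped (0.10 ± 0.07, 95% interval -0.06 to 0.25, edgeR adjusted p = 0.27). Srsf4 averaged 56.5 ± 1.87 CPM in allograft and 49.9 ± 4.51 CPM in isograft libraries (0.18 ± 0.08, edgeR adjusted p = 0.069); 43.0% of its exon bases are shared with an antisense gene, Gm12992. Its adjusted p was 0.042 with an offset for exon length and 0.023 when isograft replicate 3 was left out, and both Srsf4 (-0.043) and Srsf5 (-0.12) changed sign with total counts.

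The kinases of SR proteins moved in different directions. Srpk2 (chromosome 5, 23708262 to 23889615), a cytoplasmic SR protein kinase, had 68.3, 65.7 and 70.7 CPM in allograft libraries, against 143, 156 and 146 CPM in isograft libraries. Every allograft library lay below every isograft library, and the log2 fold change was -1.12 ± 0.07 (edgeR adjusted p = 8.0e-11), the strongest fall among the members. Its relative Srpk1 (chromosome 17, 28806622 to 28841683) was higher, at 264, 262 and 271 CPM in allograft and 206, 198 and 202 CPM in isograft libraries (0.40 ± 0.07, edgeR adjusted p = 3.5e-05). Within a library the RPKM of Srpk1 was 4.37 times that of Srpk2 in allograft and 1.53 times in isograft libraries (geometric means of 3), with log2 ratios of 2.10 to 2.16 in allograft and 0.51 to 0.69 in isograft libraries. Of the nuclear kinases, Clk1 (chromosome 1, 58449348 to 58463225) had 429.7, 449 and 495 CPM in allograft libraries, against 659.7, 654 and 609.9 CPM in isograft libraries, and fell by 0.49 on the log2 scale (SE 0.07, edgeR adjusted p = 9.7e-06). Clk4 had 198, 208 and 223 CPM in allograft and 221, 201 and 194 CPM in isograft libraries, with overlap (0.03 ± 0.07, 95% interval -0.13 to 0.18, edgeR adjusted p = 0.77). The estimate for Clk4 was -0.19 with total counts (adjusted p = 0.033), -0.015 without isograft replicate 3 and -0.029 without allograft replicate 3. Much of the RNA of Clk1 and Clk4 is known to keep introns in the nucleus until splicing is called for, which exon counts do not separate from the finished mRNA.

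**Figure D2:**
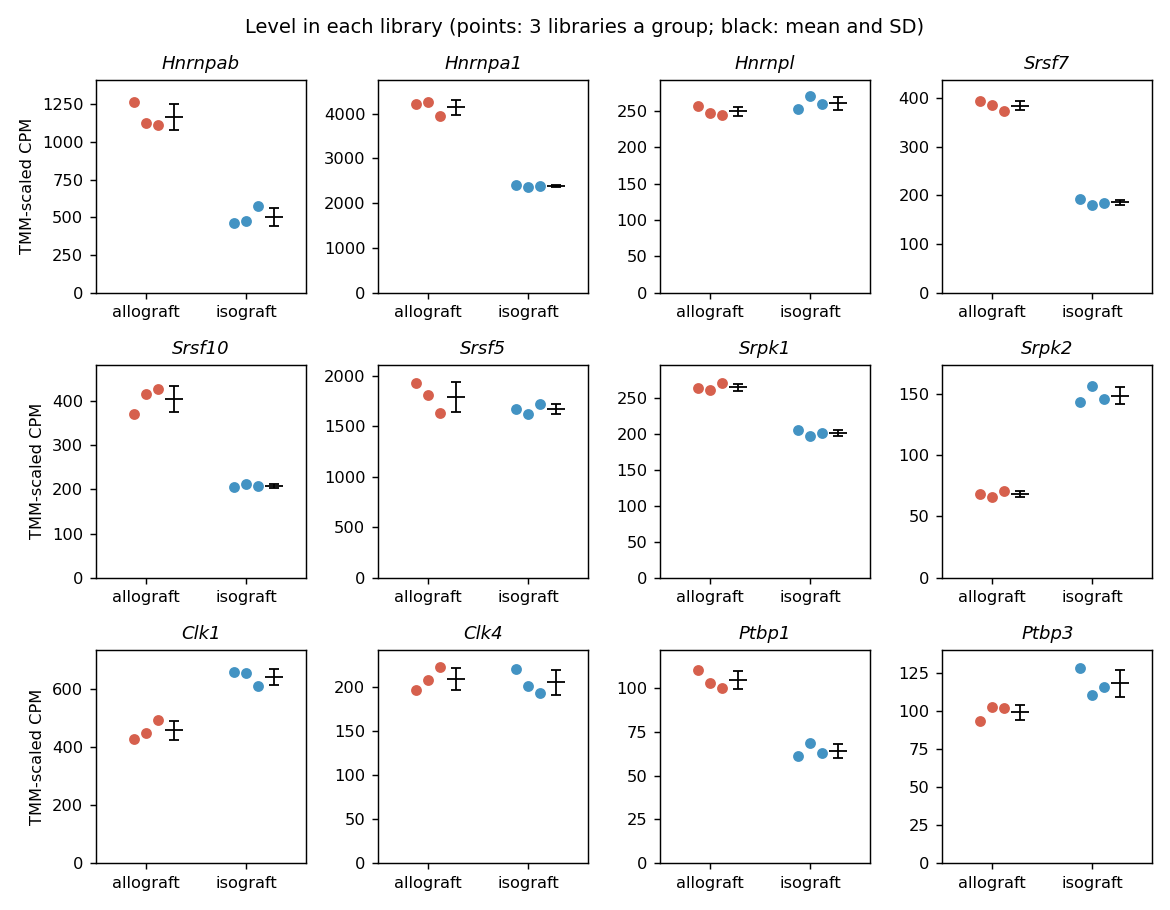
TMM-scaled CPM of 12 members in each library, allograft left of isograft, as points, with the mean and SD of 3 libraries in black; each panel starts at 0. Hnrnpab, Hnrnpa1, Srsf7, Srsf10, Srpk1 and Ptbp1 are higher in every allograft library, Srpk2, Clk1 and Ptbp3 are lower in every one, and Hnrnpl, Srsf5 and Clk4 overlap.

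Among the 17 hnRNP genes 14 rose and 1 fell, with log2 fold changes from -0.25 to 1.21 and a median of 0.56; 82.4% rose, against 28.7% of all genes. Hnrnpab, an RNA binder of the A/B type (chromosome 11, 51490927 to 51497674), had 1268, 1124 and 1113 CPM in allograft libraries, against 464, 477 and 573 CPM in isograft libraries. The lowest allograft value was well above the highest isograft value, and it rose by 1.21 ± 0.08 (edgeR adjusted p = 3.9e-10). Of its exon bases 29.1% are shared with Phykpl, on the other strand. Hnrnpa1 (chromosome 15, 103148859 to 103155119), a repressor of exon inclusion and an antagonist of Srsf1 in splice site choice, had 4221, 4248 and 3940.3 CPM in allograft libraries, against 2399, 2358 and 2392 CPM in isograft libraries (0.80 ± 0.07, edgeR adjusted p = 5.0e-09). Its close relative Hnrnpa2b1 had 5715, 5687 and 5505 CPM in allograft and 3493, 3849.6 and 3698 CPM in isograft libraries (0.61 ± 0.07, edgeR adjusted p = 2.3e-07). Hnrnpa3 rose less, by 0.43 ± 0.07, and Hnrnpa0, which had 158, 132 and 129 CPM in allograft and 107, 131 and 149 CPM in isograft libraries, did not pass (0.12 ± 0.11, edgeR adjusted p = 0.40, and -0.10 with total counts or -0.0056 without isograft replicate 1).

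Hnrnpu, a nuclear scaffold protein also called SAF-A, averaged 4068 ± 105 CPM in allograft and 2383 ± 158 CPM in isograft libraries (SD, n = 3 each; 0.77 ± 0.07, edgeR adjusted p = 1.6e-08). Hnrnpc, which binds runs of uridine and keeps cryptic exons out, averaged 1237 ± 14.9 CPM in allograft and 734 ± 46.4 CPM in isograft libraries (0.75 ± 0.07, edgeR adjusted p = 1.7e-08). Hnrnpr (0.65), Hnrnpf (0.57), Hnrnpd (0.56), Hnrnpk (0.56), Hnrnpm (0.51) and Hnrnph1 (0.23) rose as well, without overlap of the groups. Hnrnpd, known as AUF1 and a binder of AU-rich elements in unstable mRNAs, varied most between allograft libraries relative to its mean among the hnRNP genes, at 731, 615 and 551 CPM, against 379.6, 452 and 453 CPM in isograft libraries. Hnrnpf and Hnrnph1 both bind runs of G; Hnrnph1 averaged 1312 ± 27.1 CPM in allograft and 1116 ± 20.1 CPM in isograft libraries, and its estimate became 0.012 with total counts (adjusted p = 0.89).

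Hnrnpl and Hnrnpll, the pair known for repressing the variable exons of Cd45 in T cells, were not called alike, and their ratio within a library did not overlap between the groups. Hnrnpll (chromosome 17, 80336916 to 80369763), known to be induced in activated T cells, had 30.1, 27.9 and 29.7 CPM in allograft libraries, against 20.5, 20.5 and 21.9 CPM in isograft libraries (0.48 ± 0.09, edgeR adjusted p = 0.00015). Hnrnpl had 257, 248 and 244 CPM in allograft and 252, 269.7 and 259 CPM in isograft libraries, which overlapped (-0.06 ± 0.07, 95% interval -0.20 to 0.08, edgeR adjusted p = 0.46). It passed as lower with total counts (-0.28, adjusted p = 0.00085), and its estimate was 0.0040 with the length offset. Per length, Hnrnpl stood at 16.7 times Hnrnpll in allograft libraries and 24.3 times in isograft libraries.

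The polypyrimidine tract binding genes moved apart. Ptbp1, known as hnRNP I and a repressor of exons flanked by pyrimidine runs (chromosome 10, 79690261 to 79700605), had 110.4, 103 and 100.3 CPM in allograft libraries, against 61.0, 68.7 and 63.0 CPM in isograft libraries (0.70 ± 0.08, edgeR adjusted p = 1.2e-07). Ptbp3, its relative in hematopoietic cells, had 93.7, 102 and 102 CPM in allograft libraries, against 128, 110.5 and 116 CPM in isograft libraries (-0.25 ± 0.08, edgeR adjusted p = 0.0080). The fall of Ptbp3 was small and missed the threshold with the length offset (-0.17, adjusted p = 0.051) and without isograft replicate 1 (-0.19, adjusted p = 0.053). The log2 ratio of Ptbp1 to Ptbp3 per length ran from 0.63 to 0.90 in allograft libraries and from -0.41 to -0.03 in isograft libraries.

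**Figure D3:**
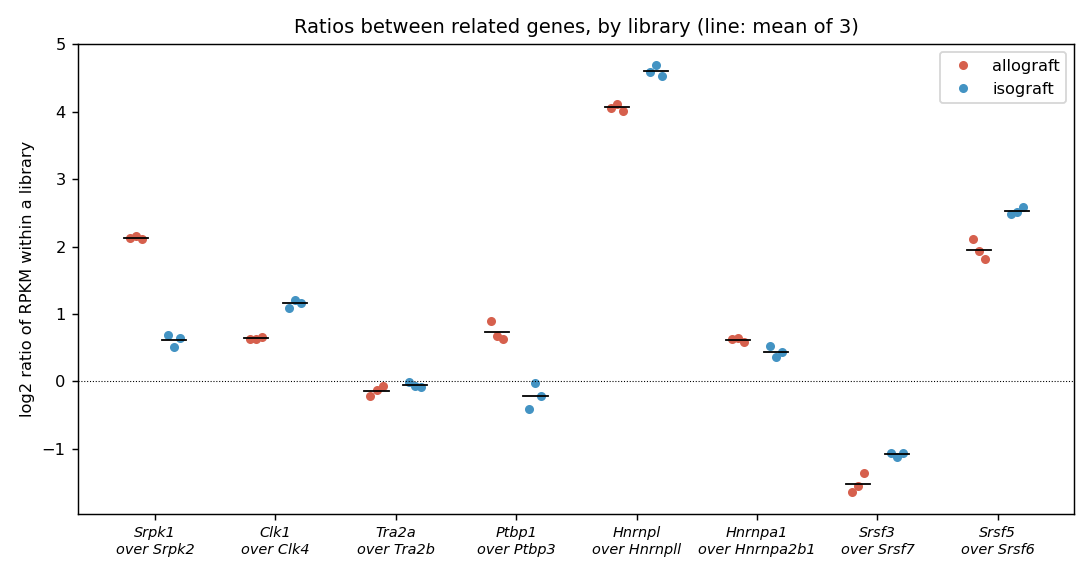
Log2 ratio of the RPKM of 8 pairs of related members within each library, allograft left of isograft, with a line for the mean of 3. The groups overlap for Tra2a over Tra2b and are apart for the other 7 pairs. Among the 8, Srpk1 over Srpk2 differs most, at a mean of 2.13 in allograft and 0.61 in isograft libraries. How often the ratios of other gene pairs are apart was not computed, and 63.3% of all single genes did not overlap between the groups.

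Of the 3 further regulators, Celf2 and Mbnl1 fell. Celf2 (chromosome 2, 6544505 to 7514374), a regulator that binds U- and G-rich sequence and in a human T cell line is induced by stimulation, had 32.8, 32.7 and 38.0 CPM in allograft libraries, against 64.9, 62.7 and 63.6 CPM in isograft libraries (-0.89 ± 0.08, edgeR adjusted p = 1.7e-08). Mbnl1 (chromosome 3, 60380251 to 60537171), a muscleblind protein that drives splicing toward mature forms in muscle and other tissues, had 176, 189.9 and 226 CPM in allograft libraries, against 307, 304 and 279 CPM in isograft libraries (-0.59 ± 0.08, edgeR adjusted p = 7.8e-06). No allograft value of either gene reached the isograft range. Rbm39, an SR-like cofactor of U2AF (chromosome 2, 155989159 to 156022158), had 1049.8, 1077 and 1163 CPM in allograft and 958, 949 and 989 CPM in isograft libraries. The call of Rbm39 (0.18 ± 0.07, edgeR adjusted p = 0.027) turned to -0.037 with total counts (adjusted p = 0.67) and was lost with no low-count filter (0.056), without isograft replicate 1 (0.058) or 2 (0.096) and without allograft replicate 2 (0.056) or 3 (0.13), with log2 fold changes of 0.13 to 0.20 in these last 5 fits.

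Levels per length spanned a wide range. Hnrnpa1 was highest, at 1312 ± 54.0 RPKM in allograft and 756 ± 7.05 RPKM in isograft libraries (SD, n = 3 each), followed by Hnrnpa2b1 at 856 ± 17.4 RPKM in allograft and 559 ± 27.2 RPKM in isograft libraries. In isograft libraries Srsf5 came next at 419 ± 11.9 RPKM; in allograft libraries it stood at 449 ± 37.3 RPKM, where Hnrnpab, at 419.9 ± 31.0 RPKM, did not differ from it beyond their spread. At the low end stood Hnrnpll (2.50 ± 0.101 RPKM in allograft, 1.80 ± 0.0665 RPKM in isograft) and Celf2 (1.33 ± 0.118 RPKM in allograft, 2.46 ± 0.0435 RPKM in isograft), whose order is reversed between the groups. Over all 6 libraries the other 34 members stood above at least 67% of tested genes, Hnrnpll above 40.4% and Celf2 above 37.8%. The exon lengths behind RPKM take in every annotated transcript (25884 bases for Celf2, 22199 for Hnrnpr), so genes with many long variants read low.

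**Figure D4:**
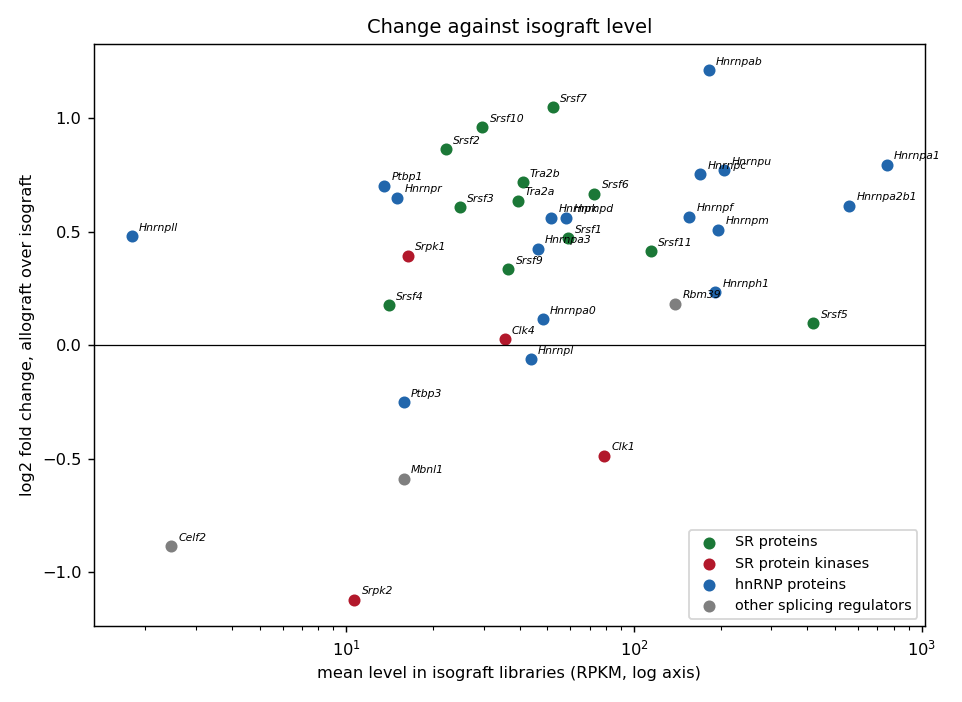
Log2 fold change (allograft over isograft) of the 36 members against their mean RPKM in isograft libraries (log axis), coloured by class. Hnrnpa1 and Hnrnpa2b1, the members with the highest levels, rose by 0.80 and 0.61, while Srsf5, the next in level, stands at 0.10.

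The SR and hnRNP classes had similar medians (0.62 and 0.56), but their summed levels did not keep the same proportion. The SR genes summed to 1269, 1248 and 1183 RPKM in allograft libraries, against 919, 907 and 949 RPKM in isograft libraries, and the hnRNP genes to 4447, 4355 and 4214 RPKM in allograft libraries, against 2613, 2712 and 2799.8 RPKM in isograft libraries. The SR genes therefore held 22.2%, 22.3% and 21.9% of the joint sum in allograft libraries, against 26.0%, 25.1% and 25.3% in isograft libraries, with no overlap. Srsf5 by itself made up 38.1%, 36.3% and 34.6% of the SR sum in allograft libraries and 45.6%, 44.9% and 45.5% in isograft libraries. Without Srsf5, a cut chosen after its values were seen, the SR share was 15.0%, 15.4% and 15.5% in allograft and 16.1%, 15.6% and 15.6% in isograft libraries. Every allograft value was then still below every isograft value, but the gap shrank to 15.3% ± 0.274 in allograft against 15.7% ± 0.283 in isograft libraries (SD, n = 3 each). On the hnRNP side, Hnrnpa1 and Hnrnpa2b1 together made up 49.6%, 50.8% and 49.5% of the sum in allograft libraries. In isograft libraries they made up 49.4%, 49.1% and 47.2%. Both sums thus rest largely on a few genes. The SR share without these 2 hnRNP genes was not computed, so whether the gap between the groups depends on them was not tested. Without Tra2a and Tra2b, 8 of 10 SR genes rose (80%) and 0 fell. Without Ptbp1 and Ptbp3, 13 of 15 hnRNP genes rose (86.7%) and 0 fell. Of all genes tested, 28.7% rose and 29.1% fell. These sums are a description over chosen genes and were not tested.

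Within families the changes were not uniform. The log2 ratio of Srsf3 to Srsf7 per length was -1.65, -1.55 and -1.36 in allograft libraries, against -1.06, -1.12 and -1.06 in isograft libraries. That of Srsf5 to Srsf6 was 2.12, 1.93 and 1.81 in allograft libraries, against 2.48, 2.51 and 2.59 in isograft libraries, and that of Clk1 to Clk4 was 0.63, 0.62 and 0.66 in allograft libraries, against 1.09, 1.21 and 1.16 in isograft libraries. In each of these pairs the groups were apart, a description only, since the share of other gene pairs with ratios apart was not computed. Of all single genes, 63.3% did not overlap between the groups. Tra2a and Tra2b kept close to each other, at a mean log2 ratio of -0.14 ± 0.079 in allograft and -0.06 ± 0.039 in isograft libraries (SD, n = 3 each), which overlapped.

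Other genes of the splicing machinery were taken from 4 lists, to be read against the 28.7% of all genes that rose and the 29.1% that fell. Among 16 other hnRNP and hnRNP-like genes 11 rose (68.8%) and 2 fell (12.5%), with a median of 0.43. Syncrip, known as hnRNP Q, rose by 1.55 ± 0.07, Taf15 by 1.13 ± 0.10 and Tardbp, the gene of TDP-43, by 0.75 ± 0.07. Among 18 genes of other SR-type proteins, kinases and carriers 11 rose (61.1%) and 5 fell (27.8%, near the share of all genes), with a median of 0.19. The transportin gene Tnpo3, whose product carries phosphorylated SR proteins into the nucleus, had a mean of 133 CPM in allograft and 79.2 CPM in isograft libraries (0.75 ± 0.07), Ppig rose by 0.70 ± 0.07, and Srpk3, another kinase of the SRPK family, fell to 6.83 CPM in allograft libraries, against 22.7 CPM in isograft libraries (-1.73 ± 0.12). Of 34 core spliceosome genes 25 rose (73.5%) and 2 fell (5.88%), with a median of 0.67, the smallest p belonging to Snrpd1 (1.45 ± 0.08), Snrpa (1.50 ± 0.09) and Prpf31 (1.36 ± 0.08). In the list of other regulators 17 of 20 genes passed the filter, of which 6 rose (35.3%) and 5 fell (29.4%), with a median of 0.04, shares near those of all genes; Rbm17 rose by 1.25 ± 0.09, Elavl1 by 0.59 ± 0.07 and Rbm25 by 0.47 ± 0.07. All of these genes named here passed by edgeR's test. As in the members' own lists, the medians are to be read against -0.01 over all genes and 0.09 over the 5599 genes at or above the level of the lowest member.

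Sequence shared with other genes limits the absolute level of some members. Distinct stretches of 100 bases in GENCODE M21 transcripts were matched on both strands. Another gene's transcript also holds 49.4% of those of Hnrnpf, 25.9% for Hnrnpa1 and 25.6% for Hnrnpa3, where these other genes number 25. The share was 36.3% for Srsf4, 18.4% for Hnrnpab and 16.6% for Srsf2. For these last members the only other genes were those that share their exon bases (Gm12992, Phykpl, and Mettl23 with Mfsd11). The 2 measures are therefore not separate limits for them. For 12 members, Srsf6, Srsf7, Srsf9, Srsf11, Tra2a and Hnrnpa2b1 among them, no such stretch was shared. Of the annotated exon bases, 26.5% for Hnrnpf, 20.7% for Ptbp1 and 14.7% for Hnrnpm are shared with other genes. Reads that fit several places or overlap several genes are left out by the counting defaults, the same for both groups, so the levels of these members are uncertain. Whether equal parts were lost in the 2 groups was not tested, so their fold changes and ratios may be affected too.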

How the data were processed

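The authors' deposited values are whole-number counts per Ensembl gene, with no normalization. Per the file headers, read pairs were counted over exons with featureCounts 1.6.0 (Ensembl release 104 on GRCm39, no strand or multi-mapping option) from a HISAT alignment; per the submitters' processing notes the builds were GRCm38 and mm10. Of 55416 Ensembl IDs, 52083 (93.99%) had a symbol. Gene coordinates are GRCm39, from the files; promoter windows are RefSeq's, on GRCm38.p6, and motifs longer than those named are not reported here. Without strand, a gene and its antisense partner cannot be told apart.

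Genes were kept by filterByExpr (14926 genes, 99.92% of counts), scaled by TMM, and compared, allograft over isograft, by the robust quasi-likelihood fit of edgeR, without a replicate block, with Benjamini-Hochberg adjustment over all genes tested. The SE was taken as the absolute log2 fold change over the square root of F. The procedure was tested on simulated counts, with 50 genes at each size of change. It called 66% of 1.5-fold changes in the right direction, 92% of 2-fold and 100% of 3-fold changes. Small true changes can thus be missed, and how far these shares hold for the members was not tested. Every member is named, and up to 3 genes of each other list by smallest p. Members and lists were chosen with earlier results of these data known. Within a group, chi-square per degree of freedom between libraries ran from 9.58 to 20.0, above sampling noise. Software was edgeR 4.0.16, DESeq2 1.42.0 and limma 3.58.1 under R 4.3.3, with matplotlib 3.10.9. The alternatives were limma-voom, DESeq2, RLE scaling, total counts, a non-robust fit, no low-count filter, at least 5 CPM in 3 libraries, a replicate block, an offset for a trend of exon length, each library left out, and immunoglobulin, hemoglobin and mitochondrial genes left out.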

Additional observations from a re-analysis of the deposited data

How the results depend on the processing

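Counts of members that rose ran from 23 to 27, and of those that fell from 4 to 7, over all alternatives, against 26 and 5. SR genes that rose numbered 9 to 11 and hnRNP genes that rose 13 to 14. The number of hnRNP genes that fell was 1, and became 2 with total counts, 0 with the length offset, and 0 to 1 with a library left out (0 without isograft replicate 1). Over all genes, total counts gave 2973 rises and 6093 falls. With total counts the sign changed for Srsf4 (-0.043), Srsf5 (-0.12), Clk4 (-0.19), Hnrnpa0 (-0.10) and Rbm39 (-0.037). With the length offset it changed for Hnrnpl (0.0040). With a library left out the estimate ran from -0.029 to 0.080 for Clk4, below 0 without isograft replicate 3 or allograft replicate 3, and from -0.0056 to 0.23 for Hnrnpa0, below 0 without isograft replicate 1. Of 576 single-member fits, 553 kept both sign and side of the threshold, 11 lost a call and 3 gained one with the same sign; the cause was not tested beyond the scaling itself. The replicate block gave 26 rises and 5 falls, and no member's call changed. Same-numbered libraries did not deviate together (correlations of -0.063, 0.003 and -0.034), and no library correlated best with its own number, so the shared numbers were not read as pairs. The lowest count of a member in a library was 679; how depth or the number of libraries limits the small changes was not tested.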
